A study of Mus musculus with 21 samples.

Results

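Focal adhesion kinase and the Crk-Rap1 pathway were followed through 10 genes: Ptk2, Src, Pxn, Bcar1, Tln1, Vcl, Crk, Crkl, Rapgef1 and Rap1b. They were picked by gene symbol from the 45706 genes of the deposited expression table, and each symbol had 1 row. The table holds 21 RNA-seq libraries of CD31+ cells sorted from E0771.lmb tumours in adult mice; E0771 is a transplantable mouse mammary carcinoma line, and the tissue is labelled breast. Of these libraries 11 were labelled WT and 10 were labelled KO, spread over 4 experiments. KO stands for Shb iECKO, that is Shb flox/flox mice with Cdh5-CreERt2, a tamoxifen-inducible Cre recombinase driven by a promoter active in endothelial cells. All tumours were grown after tamoxifen and were taken 14 to 16 days after the tumour cells were injected. Digested tumours went through CD45 magnetic beads before the sort for CD31. The protocol also names Shb flox/flox mice with Vav1-cre, whose Cre acts in blood cells, but no library carries a label that assigns it to that line. The labels do not say whether the WT mice carried the floxed allele or Cre. The study states that the 11 WT samples came from 9 tumours and the 10 KO samples from 8 tumours, so some libraries of a group share a tumour and p-values are then too small.

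At a focal adhesion, integrins in the cell membrane are tied to the actin skeleton by talin and vinculin, and clustering of integrins brings focal adhesion kinase and Src together there. Their substrates, the scaffolds paxillin and p130Cas, then bind the adaptors Crk and CrkL, which carry the exchange factor encoded by Rapgef1 to the small GTPase Rap1. In endothelium Rap1 is known for its part in cell junctions and in keeping integrins active. Shb is an SH2-domain adaptor of endothelial cells that has been placed near focal adhesion kinase and the Crk proteins in signalling, which is the background to following these genes when Shb is deleted.

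The labels were checked on Shb itself. In WT libraries the lowest, median and highest Shb values were 17.3, 31.8 and 74.3 TPM, a share of all transcripts in a library that is scaled by transcript length. In KO libraries they were 6.00, 13.7 and 52.7 TPM, so the groups overlapped. On the log2(TPM + 1) scale Shb was lower in KO by a mean of -0.91 after the experiments were taken into account (two-sided exact permutation test within experiments, 21000 arrangements, p = 0.0223). In the limma fit used below for all genes Shb was not called (unadjusted p = 0.0107, Benjamini-Hochberg adjusted p = 0.820). The differences in experiments 1 to 4 were 0.29, -1.59, -0.06 and -1.85, so that Shb was higher in the libraries labelled KO in experiment 1 and nearly level in experiment 3, with overlapping values in both. Which exons were deleted is not given in the sources used here, and a whole-gene value can miss a deletion of part of a gene. KO and WT below are therefore the labels of the libraries.

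Endothelial markers were present in all libraries. The summed TPM of 10 endothelial markers ran from 490 to 9729 in WT (median 6586) and from 1446 to 9162 in KO (median 7723), and no marker was at 0 in all libraries of a group. Pecam1, which encodes CD31, was lowest in WT replicate 2 of experiment 4 (95.04 TPM), KO replicate 2 of experiment 4 (242 TPM) and WT replicate 1 of experiment 2 (461 TPM). The sum of 8 leukocyte markers ran from 110 to 2857 TPM in WT and from 90.7 to 285 TPM in KO, and 0 of the 8 genes had a higher mean in KO. In WT replicate 2 of experiment 4 the leukocyte sum was 495 TPM, beside an endothelial sum of 490 TPM. The sum of 7 fibroblast markers ran from 28.7 to 576 TPM in WT and from 10.2 to 153 TPM in KO, and that of 6 epithelial markers of the tumour from 1.58 to 272 TPM and from 0 to 137 TPM. A higher mean in KO was found for 1 of the 7 fibroblast markers and for 4 of the 6 epithelial markers. Only 1 of the 6 epithelial markers reached 1 TPM in at least 10 libraries. The sum of 6 platelet markers ran from 0 to 403 TPM in WT and from 0.57 to 57.5 TPM in KO. Of these 6, 2 had a higher mean in KO, and Treml1 was at 0 in all KO libraries. Single markers spread likewise: Ptprc, which encodes CD45, reached 109 TPM in WT and 28.7 TPM in KO, the collagen gene Col3a1 214 and 55.8 TPM, and the platelet gene Pf4 385 and 49.3 TPM. The sum of 7 pericyte and smooth muscle markers ran from 21.3 to 189 TPM in WT and from 4.51 to 125 TPM in KO, and 0 of the 7 had a higher mean in KO. The sum of 5 erythroid markers, of which 3 had a higher mean in KO, had a median of 11.9 TPM in WT (4.03 to 310) and 91.7 TPM in KO (7.49 to 425, the highest in KO replicate 3b of experiment 2). Mitochondrial genes took 23.01% of TPM in KO replicate 2 of experiment 4, 17.7% in WT replicate 2 and 14.6% in WT replicate 3 of that experiment, 17.2% in KO replicate 3b of experiment 2, 11.4% in WT replicate 2 of experiment 1, and 1.27% to 7.94% in the other 16 libraries. The 20 most abundant genes took 71.1% of TPM in KO replicate 2 of experiment 4 and 19.7% to 52.5% in the others. The headers of 2 columns are identical, both naming KO replicate 3 of experiment 2, and they are called 3a and 3b here in the order of the table. Column 3b is written with up to 6 decimals, as the 5 columns of experiment 4 are, while the other columns have 2. The sample labels name a KO replicate 3 in experiment 2 and another in experiment 4. Both columns were kept in experiment 2 as the header says, and placing 3b in experiment 4 is among the alternatives. TPM values keep no read depth, so the number of reads behind each value is unknown.

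Of the 10 genes, 9 stood in the upper part of the expressed genes and Src stood apart. Levels can be compared between genes because TPM is scaled by length. In WT the mean log2(TPM + 1) was 7.85 for Tln1, 7.66 for Rap1b, 7.51 for Pxn, 7.31 for Rapgef1, 7.00 for Crk, 6.90 for Vcl, 6.40 for Ptk2, 6.31 for Bcar1, 4.90 for Crkl and 2.88 for Src. Tln1 was above 97.1% of the 13503 genes tested (at least 1 TPM in at least 10 libraries), Bcar1 above 88.4%, Crkl above 65.6% and Src above 28.3%. Of the 9 steps between neighbours in this order, 4 passed a two-sided exact sign-flip test of the paired differences over the 11 WT libraries. These were the steps from Rapgef1 to Crk (0.31 ± 0.35, SD of the paired differences, exact sign-flip test, adjusted p = 0.0286 over the 9 steps), Vcl to Ptk2 (0.50 ± 0.24, exact, adjusted p = 0.0044), Bcar1 to Crkl (1.42 ± 0.18, exact, adjusted p = 0.0044) and Crkl to Src (2.02 ± 1.85, exact, adjusted p = 0.0286). Neighbours did not differ beyond their spread within the sets Tln1, Rap1b, Pxn and Rapgef1, then Crk and Vcl, then Ptk2 and Bcar1. In KO the means ran Pxn, Tln1, Rapgef1, Rap1b, Crk, Vcl, Ptk2, Bcar1, Crkl and Src.

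**Figure D1:**
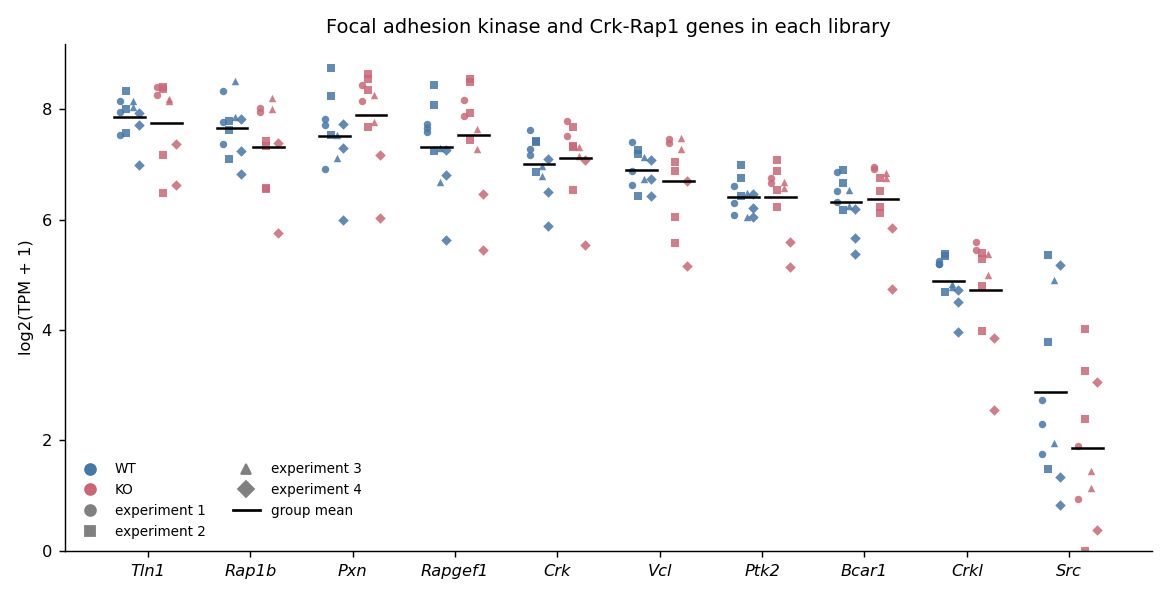
Level of each gene in each library as log2(TPM + 1) (vertical axis), ordered by the WT mean; blue points are 11 WT and red points 10 KO libraries, the shape gives the experiment and the black bar the group mean. The points of the genotypes overlap for every gene, the lowest KO points of most genes are diamonds (experiment 4), and Src spreads from 0 to above 5 log2 units.

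Ptk2 encodes focal adhesion kinase itself (ENSMUSG00000022607, chr15:73205102-73423280 on GRCm38, minus strand). Its WT libraries ran from 64.9 through a median of 85.5 to 126 TPM, and its KO libraries from 34.3 through 97.4 to 134 TPM. The KO range enclosed the WT range, and the lowest values were both KO libraries of experiment 4, at 34.3 and 47.5 TPM. Means were 85.4 ± 19.0 TPM (SD, n = 11) in WT and 90.2 ± 30.5 TPM (SD, n = 10) in KO. The fitted difference, KO minus WT on log2(TPM + 1) with experiment as a term, was -0.06 ± 0.19 (SE; 95% interval -0.46 to 0.34; limma, Benjamini-Hochberg adjusted p = 0.980). It turned to 0.055 without KO replicate 2 of experiment 4, and to 0.047 when the libraries were shifted to a common median.

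Src, the tyrosine kinase that docks on focal adhesion kinase (ENSMUSG00000027646, chr2:157418444-157471862, plus strand), had the widest spread. It ran from 0.785 through a median of 3.92 to 40.2 TPM in WT and from 0 through 2.23 to 15.2 TPM in KO. The high WT libraries were replicate 1 of experiment 2 (40.2 TPM), replicate 2 of experiment 4 (35.3 TPM), replicate 2 of experiment 3 (29.2 TPM) and replicate 2 of experiment 2 (12.9 TPM). In KO the highest were replicates 3a (15.2 TPM) and 3b (8.60 TPM) of experiment 2 and replicate 2 of experiment 4 (7.36 TPM), and Src was listed at 0 in replicate 2 of experiment 2. The remaining 7 WT libraries lay between 0.785 and 5.62 TPM, inside the KO range. Mean Src was 12.4 ± 15.0 TPM (SD, n = 11) in WT and 4.23 ± 4.84 TPM (SD, n = 10) in KO. The fitted difference was -1.17 ± 0.61 (SE; 95% interval -2.44 to 0.10; unadjusted p = 0.0698, limma, Benjamini-Hochberg adjusted p = 0.820), on a scale that understates changes of low genes. With the mean leukocyte and fibroblast marker levels as covariates it was 0.13 ± 0.56 (SE).

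The scaffolds Pxn and Bcar1 were close to the kinase in level or above it. Pxn, which encodes paxillin (ENSMUSG00000029528, chr5:115506676-115555987, plus strand), ran from 62.4 through 185 to 428 TPM in WT and from 64.2 through 294 to 399 TPM in KO. The KO median lay above the WT median, yet the ranges covered nearly the same span. Mean Pxn was 202 ± 97.4 TPM (SD, n = 11) in WT and 265 ± 107 TPM (SD, n = 10) in KO, and the fitted difference was 0.27 ± 0.26 (SE; 95% interval -0.26 to 0.80; limma, Benjamini-Hochberg adjusted p = 0.911). On a common median it was 0.38 (95% interval 0.0031 to 0.75; unadjusted p = 0.0483, limma, Benjamini-Hochberg adjusted p = 0.671), and with the leukocyte and fibroblast covariates it turned to -0.15. Bcar1, which encodes p130Cas (ENSMUSG00000031955, chr8:111710474-111743809, minus strand), ran from 40.6 through 78.9 to 118 TPM in WT and from 25.9 through 99.1 to 123 TPM in KO. Its lowest library in each genotype was replicate 2 of experiment 4, the 2 libraries with the least Pecam1. The difference of Bcar1 was near 0, at 0.006 ± 0.19 (SE; 95% interval -0.40 to 0.41; limma, Benjamini-Hochberg adjusted p = 0.998), and its sign turned in 12 of the 21 fits that left out a library (range -0.04 to 0.14).

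Of the genes for the proteins that link integrins to actin, Tln1 had the highest WT mean of the 10 and Vcl stood in the middle. Tln1 encodes talin 1, which binds integrin tails (ENSMUSG00000028465, chr4:43531519-43562691, minus strand), and ran from 126 through 246 to 320 TPM in WT and from 88.7 through 287 to 339 TPM in KO. Vcl encodes vinculin, which binds talin and actin (ENSMUSG00000021823, chr14:20929398-21033676, plus strand), and ran from 84.8 through 117 to 169 TPM in WT and from 34.7 through 124 to 178 TPM in KO. For both genes the KO libraries reached lower and higher than the WT libraries. The lowest Tln1 values in KO were in replicate 3b of experiment 2 (88.7 TPM) and replicate 2 of experiment 4 (98.3 TPM), which were also among the 3 lowest for Vcl together with replicate 3a. The fitted differences were -0.13 ± 0.24 (SE; 95% interval -0.63 to 0.38) for Tln1 and -0.19 ± 0.25 (SE; 95% interval -0.72 to 0.33) for Vcl (limma, Benjamini-Hochberg adjusted p = 0.968 and 0.933). Without both columns of the shared header Tln1 turned to 0.10.

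The adaptors Crk and Crkl, which bind phosphorylated paxillin and p130Cas through an SH2 domain, differed from each other in level and not detectably by genotype. Crk (ENSMUSG00000017776, chr11:75679259-75706908, plus strand) ran from 58.0 through 136 to 197 TPM in WT and from 45.6 through 158 to 221 TPM in KO. Crkl (ENSMUSG00000006134, chr16:17451987-17487434, plus strand) ran from 14.7 through 27.4 to 40.6 TPM in WT and from 4.84 through 34.5 to 47.3 TPM in KO. The WT ranges of both genes lay inside the KO ranges, and the lowest value of each gene in each genotype was in experiment 4. The fitted differences were 0.09 ± 0.22 (SE; 95% interval -0.36 to 0.54) for Crk and -0.22 ± 0.25 (SE; 95% interval -0.73 to 0.28) for Crkl (limma, Benjamini-Hochberg adjusted p = 0.976 and 0.919). Crk turned to -0.01 without KO replicate 1 of experiment 4, and Crkl turned to 0.08 without experiment 4.

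Rapgef1 encodes the guanine nucleotide exchange factor that Crk proteins bring to Rap1 (ENSMUSG00000039844, chr2:29619720-29740978, plus strand). It ran from 48.5 through 157 to 346 TPM in WT and from 42.8 through 216 to 373 TPM in KO, and the ranges overlapped over nearly their whole length. Its difference was 0.10 ± 0.24 (SE; 95% interval -0.41 to 0.60; limma, Benjamini-Hochberg adjusted p = 0.976) and turned to -0.01 without WT replicate 1 of experiment 2. Rap1b, the GTPase at the end of the chain (ENSMUSG00000052681, chr10:117813871-117846035, minus strand), ran from 112 through 217 to 363 TPM in WT and from 53.1 through 168 to 295 TPM in KO. The KO median was below the WT median, and 1 WT library, replicate 2 of experiment 3, held the highest value. Mean Rap1b was 212 ± 75.8 TPM (SD, n = 11) in WT and 179 ± 82.3 TPM (SD, n = 10) in KO, with a difference of -0.33 ± 0.23 (SE; 95% interval -0.81 to 0.15; limma, Benjamini-Hochberg adjusted p = 0.849). The direction of Rap1b was lower in KO in all 39 alternatives that were run, with values from -0.47 to -0.16 and none past the threshold. Those alternatives reuse most of the same libraries. Within experiments 1 to 4 the Rap1b difference was 0.16, -0.53, -0.08 and -0.72, so it was higher in KO in experiment 1.

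By genotype, then, 0 of the 10 genes passed an adjusted p of 0.05 in limma, where 0.00741% of all genes did, and 0 of the 10 had an unadjusted p under 0.05, where 5.88% of all genes did. Shb, the deleted gene, did not pass the adjusted threshold in this fit either (limma, Benjamini-Hochberg adjusted p = 0.820). No other tool was run on these values. The fitted differences were above 0 for 4 genes and below 0 for 6, against 36% of all genes above 0, and their median was -0.09 against -0.11 for all genes. Shifting the libraries to a common median moved the median of all genes by 0.11. On that scale 5 of the 10 were above 0, against 49.2% of all genes, and their median was 0.01. The 95% intervals of Ptk2 and Bcar1 stayed within 0.5 log2 units of 0, and those of the other 8 genes reached past it in at least 1 direction. In bulk samples fewer cells of a type and less RNA per cell cannot be told apart.

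**Figure D2:**
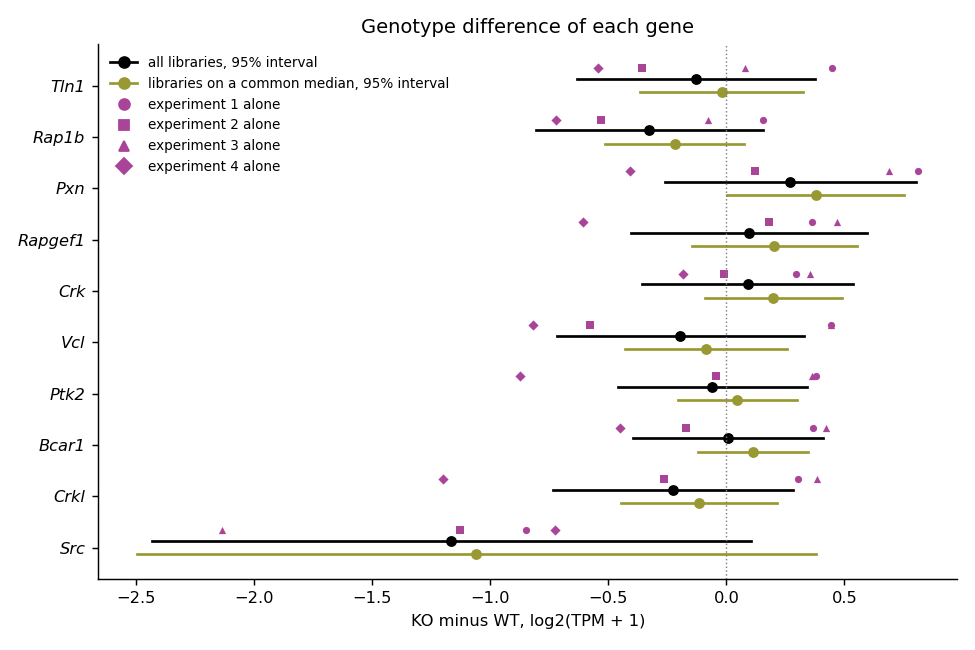
Difference of each gene, KO minus WT on log2(TPM + 1) (horizontal axis), with its 95% interval from the fit over all 21 libraries (black) and with the libraries on a common median (olive); purple shapes are the differences of means within each experiment. Every black interval crosses 0, that of Src being the widest at -2.44 to 0.10, and the diamonds of experiment 4 lie left of 0 for all 10 genes.

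Within experiments the direction differed. In experiment 1 the mean was higher in KO for 9 of the 10 genes, against 72.5% of all genes, and in experiment 3 for 8 of the 10, against 56.3%. In experiment 2 it was higher for 2 of the 10 (Pxn and Rapgef1), against 35.4%, and in experiment 4 for 0 of the 10, against 17.3%. The scaling moved these counts: on a common median they were 8, 4, 8 and 3 of the 10 in experiments 1 to 4, against 56.5%, 44%, 57.2% and 46.7% of all genes. As deposited, Src was lower in KO in each experiment, by -0.85, -1.13, -2.14 and -0.73 in experiments 1 to 4.

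Ptk2 and Crkl were the 2 genes of the 10 whose genotypes were separated in opposite directions in different experiments. The share of all genes with such a pattern was not counted, so it may be common. Shares within each experiment are given in the next paragraph. In experiment 1 Ptk2 was 106 and 101 TPM in KO against 96.3, 66.8 and 77.7 TPM in WT, and in experiment 3 it was 94.0 and 102 TPM against 88.8 and 64.9 TPM. In experiment 4 it was 47.5 and 34.3 TPM in KO against 65.5, 73.2 and 87.5 TPM in WT. Both KO libraries were thus above every WT library in experiments 1 and 3 and below every WT library in experiment 4, with differences of 0.38, 0.36 and -0.87. Crkl in experiment 1 was 42.6 and 47.3 TPM in KO against 37.3, 35.7 and 35.8 TPM in WT, and in experiment 4 it was 13.4 and 4.84 TPM against 21.7, 14.7 and 25.5 TPM. Its differences were 0.30 in experiment 1, -0.26 in experiment 2, 0.38 in experiment 3 and -1.20 in experiment 4.

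Every KO library lay above every WT library for 6 genes in experiment 1 (Bcar1, Crkl, Ptk2, Pxn, Rapgef1 and Tln1), against 18% of all genes, and below for 0, against 3.35%. In experiment 3 this held for 7 genes (Bcar1, Crk, Crkl, Ptk2, Pxn, Tln1 and Vcl), against 18.1%, and every KO library of Src lay below every WT library, against 11.8%. In experiment 2 it held for 0 genes, against 1.63%, and 0 were separated the other way, against 4.91%. In experiment 4 it held for 0 genes, against 1.61%, and Ptk2 and Crkl were separated the other way, against 19.1%. These groups hold 2 to 4 libraries each. A limma F test of whether the genotype difference varied between experiments called 0 of 13503 genes, with 3.84% of all genes at an unadjusted p under 0.05. Of the 10 genes none reached that, the smallest unadjusted values being 0.0753 for Ptk2 and 0.0965 for Crkl (limma, Benjamini-Hochberg adjusted p = 1.00 for each). Experiments 1 and 3 were also those with Shb differences of 0.29 and -0.06, and in experiment 4 a WT and a KO library had little Pecam1 and high mitochondrial shares (17.7% and 23.01% of TPM). The part of these in the contrast was not tested.

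Levels differed between experiments for 5 of the 10 genes, against 29.1% of all genes (limma F test, Benjamini-Hochberg adjusted p under 0.05). Experiments 1 to 4, with 5, 7, 4 and 5 libraries, had Rapgef1 means of 225 ± 37.99, 273 ± 89.9, 153 ± 39.8 and 88.1 ± 45.2 TPM (± SD; limma, Benjamini-Hochberg adjusted p = 0.0050). The highest Rapgef1 library of experiment 4, WT replicate 3 at 152 TPM, barely passed the lowest of experiment 2, WT replicate 1 at 151 TPM.

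Rap1b did not follow that order. Its means in the same order were 242 ± 57.03, 153 ± 48.1, 286 ± 58.2 and 141 ± 64.2 TPM (± SD; limma, Benjamini-Hochberg adjusted p = 0.0334). All 4 libraries of experiment 3, at 230 TPM or more, lay above all 7 of experiment 2, of which the highest had 219 TPM. Experiment 2 therefore held the highest mean of Rapgef1 and, after experiment 4, the lowest of Rap1b.

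Bcar1 (adjusted p = 0.0151), Crkl (adjusted p = 0.0200) and Pxn (adjusted p = 0.0295, all limma with Benjamini-Hochberg) had their lowest mean in experiment 4, at 49.0 ± 17.3, 16.0 ± 7.99 and 127 ± 63.9 TPM (SD, n = 5). In the other experiments Bcar1 had means of 90.1 to 106 TPM, Crkl of 31.4 to 39.7 TPM and Pxn of 210 to 316 TPM. Crk, Ptk2, Tln1, Vcl and Src did not pass (limma, Benjamini-Hochberg adjusted p = 0.0528, 0.0841, 0.208, 0.213 and 0.571). On a common median 2 of the 10 passed, Rapgef1 (limma, Benjamini-Hochberg adjusted p = 0.0065) and Rap1b (0.0126), against 18.5% of all genes.

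These calls leaned on few libraries. Without the 3 libraries of lowest Pecam1, 1 of the 10 passed, Rapgef1, against 14.2% of all genes. When single libraries were left out, Bcar1 and Rapgef1 passed in 21 of 21 fits, Crkl in 20, Pxn in 17 and Rap1b in 14. Leaving out the KO or the WT library numbered 2 in experiment 4 each brought the count to 3, and the highest count was 7, when WT replicate 3 of that experiment was left out. Without experiment 2 the count was 0, against 0.0333% of all genes, and without experiment 4 it was 1, Rap1b, against 13.3%.

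After the experiment and genotype means were removed, 9 of the genes varied together from library to library and Src varied against them. The 45 pairs among the 10 genes were examined over the 21 libraries by partial correlation of log2(TPM + 1), with permutations within experiments (100000) and Benjamini-Hochberg adjustment over the 45. All 36 pairs without Src had a positive Pearson r, from 0.59 to 0.93 with a median of 0.84, Spearman's rho from 0.53 to 0.93, and a permutation p of at most 0.0412 after adjustment. Pairs of other expressed genes were not examined, so it is not known whether such values are particular to these genes. The closest pair was Pxn and Rapgef1, with r of 0.93 and rho of 0.93 (permutation, p = 1e-05 for r, the smallest that these permutations can give, and adjusted p = 5.62e-05), r of 0.97 without the 2 libraries farthest from the median and 0.97 within the 7 libraries of experiment 2. The loosest was Ptk2 and Crk, with r of 0.59 and rho of 0.53 (permutation, adjusted p = 0.0412 for r and 0.0381 for rho) and r of 0.42 without the 2 farthest libraries.

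The correlations changed with the scaling of the libraries, and the cause was not tested. On a common median 34 of the 36 pairs were positive, r ran from -0.17 to 0.86 with a median of 0.54, and the pair of Pxn and Rapgef1 kept r of 0.86. Ptk2 lost most: its median r with the other 8 genes went from 0.71 to 0.22, while that of Pxn went from 0.83 to 0.61. The 9 pairs with Src were all negative, with r from -0.82 to -0.54, rho from -0.84 to -0.48, and r from -0.76 to -0.21 on a common median. Of these 9, 8 passed for r, and the pair with Rap1b did not (permutation, adjusted p = 0.0531). The strongest was Src and Rapgef1, with r of -0.82 and rho of -0.84 (permutation, adjusted p = 0.0013 for r and 0.000318 for rho), -0.79 without the 2 farthest libraries and -0.81 within experiment 2. The other experiments hold fewer than 6 libraries, so no value within them is given. Libraries from a shared tumour are not independent, which these p-values do not take into account.

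**Figure D3:**
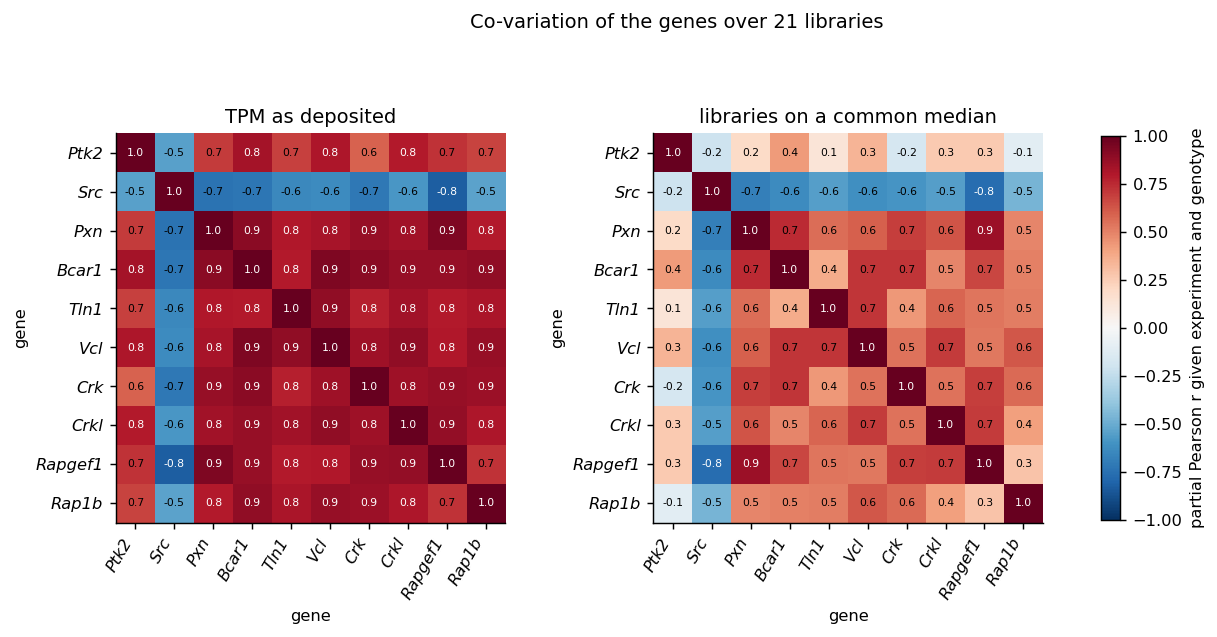
Partial Pearson r between each pair of genes over 21 libraries given experiment and genotype, with TPM as deposited (left) and libraries on a common median (right); red is positive, blue negative, and each cell prints r. The Src row and column are blue in both maps, and the Ptk2 row loses most of its red in the right map.

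Src varied against the endothelial markers and, by Pearson r, with 2 of 4 lists of markers of other cells. For each gene, 5 marker means (endothelial, leukocyte, tumour epithelium, fibroblast and platelet) were related to its level, giving 50 relations adjusted together. Src and the endothelial mean had r of -0.86 and rho of -0.89 (permutation, adjusted p = 0.0005 for r and 0.00125 for rho), r of -0.86 without the 2 farthest libraries, -0.75 on a common median and -0.85 within experiment 2. With the tumour epithelium mean Src had r of 0.77 and rho of 0.87 (permutation, adjusted p = 0.0243 and 0.00875), and 0.86 without the 2 farthest libraries. With the fibroblast mean it had r of 0.71 and rho of 0.78 (permutation, adjusted p = 0.00883 and 0.00125), whereas the leukocyte mean, with r of 0.59 and rho of 0.58 (permutation, adjusted p = 0.0566 and 0.0479), did not pass for r. The platelet mean, with r of 0.35 and rho of 0.40 (permutation, adjusted p = 0.209 and 0.163), did not pass.

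Library by library, WT replicate 1 of experiment 2, with 40.2 TPM of Src, had summed epithelial markers of 70.0 TPM and fibroblast markers of 386 TPM. WT replicate 2 of experiment 4, with 35.3 TPM of Src, had 272 TPM of epithelial and 136 TPM of fibroblast markers. WT replicate 2 of experiment 3, with 29.2 TPM of Src, had 142 TPM of epithelial, 576 TPM of fibroblast and 2857 TPM of leukocyte markers. KO replicate 2 of experiment 4 had 137 TPM of epithelial markers and 7.36 TPM of Src, and KO replicate 2 of experiment 2, where Src was listed at 0, had 0.78 TPM of epithelial markers. The part of these other cells in the Src difference between genotypes was not tested beyond the fit with leukocyte and fibroblast covariates. No fit held the epithelial markers as a covariate.

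The other 9 genes had positive r with the endothelial mean, from 0.37 to 0.81, of which 5 passed for r. Vcl, Crkl and Rap1b passed for rho only (permutation, adjusted p = 0.0106, 0.0387 and 0.0336). Rapgef1 had the highest, with r of 0.81 and rho of 0.86 (permutation, adjusted p = 0.0142 and 0.00667) and 0.77 on a common median. Ptk2 had the lowest, with r of 0.37 and rho of 0.43 (permutation, adjusted p = 0.399 and 0.171), r of 0.80 without the 2 farthest libraries and r of -0.07 on a common median, where the other 8 genes stayed positive. Against the tumour epithelium mean Pxn, Bcar1, Crk and Rapgef1 passed with negative r, from -0.74 to -0.66 (permutation, adjusted p at most 0.0274). Rapgef1 also passed against the leukocyte mean (r of -0.64) and the fibroblast mean (r of -0.56, permutation, adjusted p = 0.0285 for each).

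**Figure D4:**
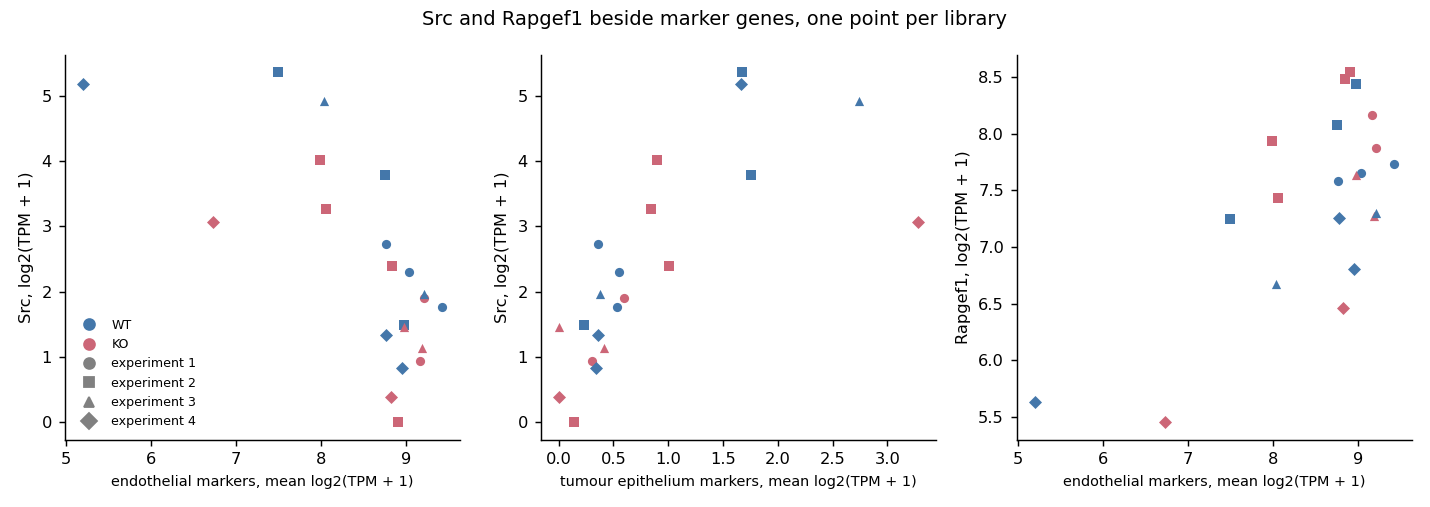
Src against the mean log2(TPM + 1) of 10 endothelial markers (left) and of 6 tumour epithelium markers (middle), and Rapgef1 against the endothelial mean (right), each axis in log2(TPM + 1) and each point a library, coloured by genotype and shaped by experiment. Src falls from left to right in the left panel and climbs in the middle panel, and Rapgef1 climbs in the right panel with the experiments at different heights.

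Among the 13493 other genes tested, those with the most similar pattern over the 21 libraries, by Pearson r after the experiment and genotype means were removed, are given as a description. For Src they were Esx1 (r = 0.96) and Nxf3 (0.96). For Ptk2 they were Plcb3 (0.94) and Arhgap35 (0.94), for Pxn RP24-328P2.5 (0.97) and Cdk16 (0.96), and for Bcar1 Qk (0.97) and Ets1 (0.97). Tln1 was most like Serinc1 (0.94) and Ss18 (0.93), Vcl like Gtf3c1 (0.96) and Lrrc58 (0.96), Crk like Tspan14 (0.95) and Tax1bp3 (0.95), and Crkl like Tsc2 (0.96) and Gnb1 (0.96). Rapgef1 was most like Cdk16 (0.97) and Cdk17 (0.97), and Rap1b like Rab1 (0.97) and Pafah1b2 (0.96). Cdk16 stood on the lists of both Pxn and Rapgef1.

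Several members have a close relative or a binding partner with which they can be set side by side as a ratio of TPM, a description chosen after the values were seen. Crk exceeded Crkl in every library, by a median ratio of 4.55 and a range of 3.89 to 10.0, the highest in KO replicate 1 of experiment 4. Rap1b exceeded Rap1a, the gene for the nearly identical GTPase, by a median ratio of 2.22 and a range of 1.53 to 2.82. Ptk2 exceeded Ptk2b, the gene for the related kinase Pyk2, by a median ratio of 12.8, but only by 1.14 in WT replicate 2 of experiment 3 and by 1.23 in WT replicate 2 of experiment 4. Bcar1 was below Nedd9, the gene for its relative HEF1, by a median ratio of 0.677, but the ratio was above 1 in 4 libraries: 5.52 in WT replicate 2 of experiment 4, 1.19 in WT replicate 1 of experiment 2, 1.17 in KO replicate 2 of experiment 4 and 1.13 in KO replicate 3a of experiment 2. The ratio of Tln1 to Vcl had a median of 1.90 and a range of 1.48 to 2.91. By genotype Rap1a differed by -0.19 ± 0.22, Ptk2b by -0.52 ± 0.50 and Nedd9 by 0.16 ± 0.39 (SE; limma, Benjamini-Hochberg adjusted p = 0.925, 0.911 and 0.976).

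The rest of the pathway was read from 70 further genes in 8 subgroups, of which 64 were tested (Efs, Lpxn, Fermt1, Grb7, Rap1gap and Rap1gap2 were too low). Of the 64, 34 had a higher fitted mean in KO, against 36% of all genes, and 30 a lower one. In limma 0 passed the adjusted threshold, against 0.00741% of all genes, and 0 had an unadjusted p under 0.05, against 5.88%. Their median difference was 0.02, against -0.11 for all genes, and on a common median 0.12 with 46 of the 64 above 0, against 49.2% of all genes. Between experiments 30 of the 64 passed, against 29.1% of all genes, and 12 on a common median, against 18.5%.

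No gene of the Rap switch passed the test. All 7 tested Rap exchange factors had differences above 0 (median 0.23), against 36% of all genes, and also on a common median, against 49.2%. The 4 other Rap GTPases had differences below 0 on both scales (median -0.24 as deposited). Rapgef4, the gene for the cyclic AMP sensor Epac2, had a mean of 103 ± 77.1 TPM (SD, n = 11) in WT and 158 ± 87.3 TPM (SD, n = 10) in KO and a difference of 0.54 ± 0.34 (SE; limma, Benjamini-Hochberg adjusted p = 0.836). Rapgef3, the gene for Epac1, had a difference of 0.03 ± 0.30, and Rasgrp3 one of 0.02 ± 0.36 (SE), both named after their values were seen. Among the GTPases Rap2b had a mean of 9.98 ± 5.09 TPM (SD, n = 11) in WT and 7.37 ± 2.43 TPM (SD, n = 10) in KO and a difference of -0.34 ± 0.28 (SE; limma, Benjamini-Hochberg adjusted p = 0.885).

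In the other subgroups the genes with the smallest unadjusted p were Yes1 among the kinases (0.31 ± 0.26, a Src family kinase), Zyx among the scaffolds (-0.32 ± 0.22, zyxin) and Fermt3 in the actin and integrin linkage (-0.80 ± 0.52, the blood-cell kindlin). They were Pik3r1 among the adaptors (0.28 ± 0.26, a regulatory subunit of PI3-kinase), Sipa1l3 among the GTPase-activating proteins (0.27 ± 0.19) and Apbb1ip among the Rap1 effectors (-0.88 ± 0.53, the gene for RIAM, which is common in leukocytes). Each value is KO minus WT with its SE, and adjusted p ran from 0.834 to 0.909 for these 6 (limma, Benjamini-Hochberg). Fermt3 was highest in WT at 46.7 TPM and reached 7.02 TPM in KO, and Apbb1ip was highest in WT at 79.4 TPM and reached 17.6 TPM in KO, beside the leukocyte marker sums given above, whose part was not tested for these genes. Of the 10 tested genes of the actin and integrin linkage 1 was above 0, against 36% of all genes, and 5 were on a common median, against 49.2%.

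**Figure D5:**
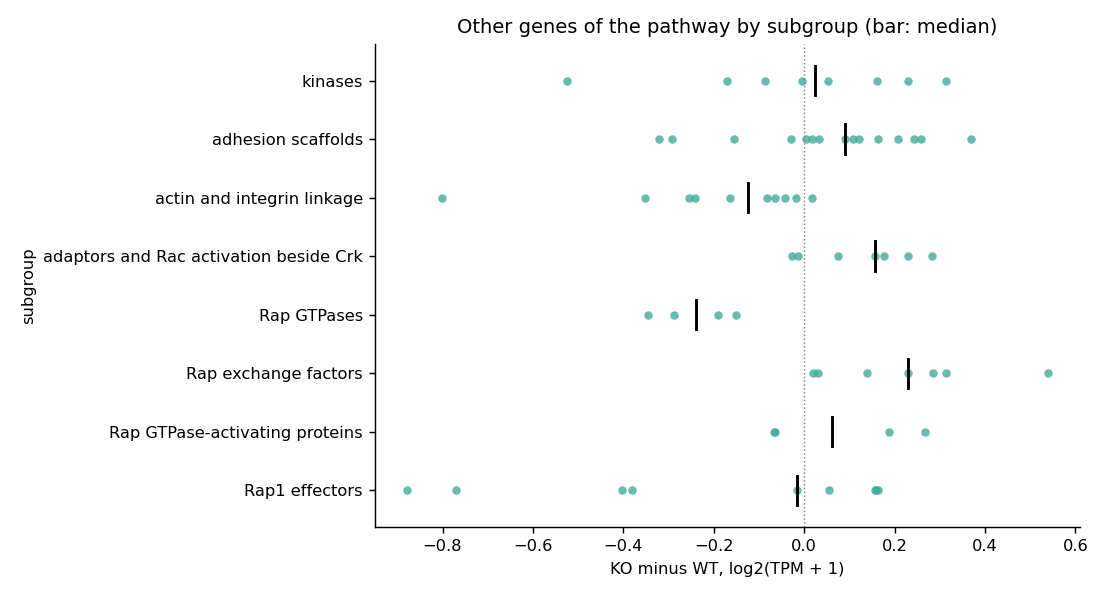
Fitted difference of each of 64 further pathway genes, KO minus WT on log2(TPM + 1) (horizontal axis), by subgroup; each point is a gene and the bar the subgroup's median. The 7 Rap exchange factors lie right of 0 and the 4 Rap GTPases left of 0, and no point passed the test.

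Where these genes start was read from RefSeq promoter sequences of the build GRCm38.p6 (250 bases before to 50 after the annotated start), since the genes vary together across libraries. Of the 10 genes 8 matched, with 9 windows as Bcar1 has 2, and Ptk2 and Pxn had no entry. In all, 5 short motifs were searched on both strands: the CArG box known from serum response factor, the cyclic AMP response element (CRE) TGACGTCA, the GC box GGGCGG, the CCAAT box CCAAT and the TATA box TATAAA. The sequences shown are the 250 bases before the start of Rapgef1 and Src, the pair that varied most strongly in opposite directions, and of Vcl, Crkl and Rap1b, the windows with a CArG box or a CRE. Capitals mark a CArG box, a CRE or a CCAAT box on either strand, and each runs 5′ to 3′ along the gene's strand.
Rapgef1 chr2:29619470-29619719 (plus strand): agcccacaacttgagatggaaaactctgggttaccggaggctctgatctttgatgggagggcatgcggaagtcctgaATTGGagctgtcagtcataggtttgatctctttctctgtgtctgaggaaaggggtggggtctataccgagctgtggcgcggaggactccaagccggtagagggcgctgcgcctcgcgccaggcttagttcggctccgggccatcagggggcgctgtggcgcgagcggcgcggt
Src chr2:157424043-157424292 (plus strand): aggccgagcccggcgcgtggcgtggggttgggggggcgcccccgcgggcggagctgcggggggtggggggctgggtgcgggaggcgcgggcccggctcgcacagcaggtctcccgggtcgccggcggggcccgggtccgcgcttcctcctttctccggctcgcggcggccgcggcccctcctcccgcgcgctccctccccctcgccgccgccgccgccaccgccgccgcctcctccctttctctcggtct
Vcl chr14:20929148-20929397 (plus strand): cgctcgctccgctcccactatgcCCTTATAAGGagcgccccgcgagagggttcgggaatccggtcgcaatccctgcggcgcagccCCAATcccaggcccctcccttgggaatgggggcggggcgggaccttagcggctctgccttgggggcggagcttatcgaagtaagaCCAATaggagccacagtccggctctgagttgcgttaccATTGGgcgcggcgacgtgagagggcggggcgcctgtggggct
Crkl chr16:17451735-17451984 (plus strand): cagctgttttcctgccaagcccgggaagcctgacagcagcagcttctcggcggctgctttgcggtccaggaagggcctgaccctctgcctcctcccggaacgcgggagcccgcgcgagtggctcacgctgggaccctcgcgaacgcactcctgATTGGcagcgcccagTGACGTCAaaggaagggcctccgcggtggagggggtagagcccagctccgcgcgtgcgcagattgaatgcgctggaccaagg
Rap1b chr10:117845975-117846224 (minus strand): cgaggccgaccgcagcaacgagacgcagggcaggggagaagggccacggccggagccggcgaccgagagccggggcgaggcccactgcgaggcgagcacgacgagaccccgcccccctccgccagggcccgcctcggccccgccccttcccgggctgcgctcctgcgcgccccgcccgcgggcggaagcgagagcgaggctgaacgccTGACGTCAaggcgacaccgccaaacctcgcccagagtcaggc

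The Vcl window held a CArG box that began 227 bases before the start, and the motif was in 1.63% of the 32851 promoter windows. The CRE began 82 bases before the start of Crkl and 42 bases before that of Rap1b and was in 1.79% of windows. CCAAT boxes were found in Rapgef1, Crk, Vcl, Crkl and the second Bcar1 window and are in 37.4% of windows. GC boxes are in 35.7%, and the TATA box, in 13.6% of windows, was in none of the 9. The Src window was 82.3% G and C, more than 99.6% of all windows, against 65.3% for Rapgef1, 78.0% for Rap1b and a median of 52.7% over all. A match is a description of letters, and no binding was measured here. In the GENCODE annotation of GRCm38 the longest coding transcript of each member shares no 100-base stretch with a transcript of another gene. Exons outside that transcript were not searched. On the opposite strand Vcl overlaps Ap3m1, Tln1 overlaps Creb3, and Ptk2 overlaps 1700085D07Rik and Gm24787. Crkl overlaps Gm22770 and Rapgef1 overlaps Gm9823 in the same way. On their own strand Ptk2 overlaps Mir151 and Gm7908, and Pxn overlaps Gm13840. The kit marks strand, and whether the counting used it is not given in the sources used here.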

How the data were processed

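The authors deposited a single table of TPM (transcript shares scaled by length) for 45706 genes and 21 libraries of total RNA, made with a stranded kit after ribosomal RNA removal, per the labels' protocols. Per the submitters' processing notes the genome build was GRCm38; aligner and counter: not given in the sources used here. Values were read with decimal commas. Differences were fitted with limma 3.58.1 in R 4.3.3 on log2(TPM + 1), with trended robust prior, experiment and genotype as terms, and Benjamini-Hochberg adjustment over the 13503 genes that reached 1 TPM in 10 or more libraries (threshold 0.05). The fit was run on simulated data with independent noise and large added changes. That setting held no library-wide shifts and no shared tumours, so it checks the code and not the power here. Intervals are 95%, and read depth is unknown. Shb was tested by exact permutation, level steps by exact sign flips, and correlations by 100000 permutations within experiments. Named are the 10 members, Shb, marker genes, 3 paralogs, in each subgroup the gene of smallest p, and for each member the 2 genes most like it; Rapgef3 and Rasgrp3 were added after their values were seen. Alternatives covered pseudocount, filter, scaling, covariates, shared columns, the replicate block and libraries or experiments left out. The members and lists were chosen with earlier results of these data known, and the motifs after the values were seen.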

Additional observations from a re-analysis of the deposited data

How the results depend on the processing

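By genotype, limma called 1 of all genes at an adjusted p under 0.05 as reported, 2 on a common median, 2 after quantile normalization, and 0 without experiment 1 and without experiment 2. None of these was a member: 0 of the 10 were called in any of the 39 alternatives, the lowest adjusted p being 0.604 for Src (38 alternatives, as Src was not tested at a minimum of 5 TPM). Whether replicate numbers pair the samples could not be settled. Of 10 same-numbered pairs 2, both in experiment 4, had a correlation of deviations above 0.1 (range -0.20 to 0.36). The deviations were taken from means of only 2 to 4 libraries, and columns 3a and 3b were set against the same WT library. With experiment and number as a replicate block 0 genes were called.

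Directions turned as follows, and the cause was not tested. Ptk2 was 0.011 with no experiment term, 0.047 on a common median, 0.018 with either shared-header column placed in experiment 4, 0.016 without both, 0.029 without the 3 libraries of lowest Pecam1 and 0.19 without experiment 4. With leukocyte and fibroblast markers as covariates Src was 0.13, Pxn -0.15, Bcar1 -0.22, Crk -0.16 and Rapgef1 -0.35. Bcar1 was -0.10 without experiment 1 and -0.10 without experiment 3, Tln1 0.10 without both shared-header columns and Crkl 0.075 without experiment 4. When single libraries were left out, Ptk2 ran from -0.12 to 0.055, Bcar1 from -0.043 to 0.14, Crk from -0.0062 to 0.24 and Rapgef1 from -0.0061 to 0.24. Vcl and Rap1b kept their direction in all 39 alternatives, which reuse most of the same libraries.

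Between experiments 3931 genes and 5 members were called as reported. On a common median the counts were 2496 and 2, without the 3 libraries of lowest Pecam1 1847 and 1, without experiment 2 they were 4 and 0, and without experiment 4 they were 1715 and 1, the last 3 settings being chosen after the data were seen. Leaving out single libraries gave 2335 to 5015 genes and 3 to 7 members. The partial r of Src with the endothelial mean stayed between -0.91 and -0.75 over 25 alternatives, and the Shb difference was -0.83 with column 3b in experiment 4. Precision is limited by 2 to 4 libraries per genotype and experiment, by libraries that share tumours and by an unknown read depth.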
